A study of Homo sapiens with 6 samples.

Results

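The genes described here encode the proteins of the cytosolic ribosome and their close relatives. They were chosen by name: protein-coding genes whose symbol has the form RPL or RPS with a number, RPLP0 to RPLP2, or RPSA. The rule found 84 genes among the 62656 in the deposited tables. Of these, 77 are core genes, with 46 for the large (60S) subunit and 31 for the small (40S) subunit, and 7 are paralogues kept apart from them: RPL3L, RPL7L1, RPL10L, RPL22L1, RPL26L1, RPL39L and RPS27L. All 77 core genes and 5 of the 7 paralogues had enough counts to be tested, while RPL3L and RPL10L were below the filter on low counts.

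Each ribosome carries a single copy of nearly every ribosomal protein, so the core genes are expressed together and at very high levels in growing cells. Most of their mRNAs begin with a C followed by a run of C and T bases, the terminal oligopyrimidine (TOP) start, through which the mTORC1 pathway and LARP1 control their translation. Several paralogues are known from particular tissues: RPL3L from heart and skeletal muscle, and RPL10L and RPL39L from male germ cells. RPL39L is also known from some tumours, RPS27L is a p53 target, and the core protein RPL22 is known to restrain its own paralogue RPL22L1.

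The RNA came from OVCAR5, an established cell line of human ovarian cancer, which carried no genetic change named in the labels. Cells received 100 nM NTX301, a DNA hypomethylating agent per the series' title, or the solvent dimethyl sulfoxide (DMSO), for 3 days, with 3 libraries per treatment. A dose of 10 nM, also named in the treatment protocol, is not analysed here. Nothing in the labels tells whether libraries of a treatment stem from separate cultures, so the spread behind every p-value is that between libraries and may be technical. In RNA from whole cultures, fewer cells of a kind and less RNA per cell cannot be told apart.

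Libraries held 22131175 to 25743732 estimated counts. The 5 epithelial markers EPCAM, KRT8, KRT18, KRT19 and CDH1 were all measured, with a summed level of 3880 to 4150 CPM (counts relative to the scaled library total) with DMSO and 1880 to 2000 with NTX301. Fibroblast markers summed to 2.34 to 3.37 CPM with DMSO and 9.6 to 11.1 with NTX301, and 4 leukocyte markers to 13.2 to 14.0 and 18.6 to 19.5. The muscle markers summed to 30.1 to 34.2 and 33.6 to 38.8 CPM, with MYH7 at 0 counts in all libraries. The germ cell markers summed to 0.0851 to 0.386 and 0.272 to 0.472 CPM, with TNP1 at 0 in all. Endothelial markers summed to 4.79 to 5.40 and 5.94 to 6.41 CPM. Of the tested markers, 4 epithelial ones fell and CDH1 rose by 0.31 (log2 scale, edgeR, as for the other markers). The fibroblast markers PDGFRB and COL3A1 rose and LUM fell by 0.66. The 1 tested leukocyte marker rose by 0.49, and the 1 tested muscle marker did not pass at 0.15. Of 3 endothelial markers 2 rose, but only 1 rose when any single library was left out. Mitochondrially encoded genes held 8.91%, 8.32% and 9.75% of the counts with DMSO and 6.95%, 7.40% and 6.48% with NTX301, groups that did not overlap (two-sided exact permutation test, p = 0.1). The part of these differences in the results on ribosomal protein genes was not tested.

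RefSeq promoters (GRCh38.p14) were matched by symbol for 62 core genes and 5 paralogues. The paralogues RPL39L and RPL3L had no entry. The sequences below cover 10 bases before the annotated start and the first 20 bases of the transcript. They are shown because most core genes with an entry share a feature here that most of these 5 paralogues lack. Capitals mark the run of C and T from the first transcribed base where that base is C and at least 4 more C or T bases follow. RPL22, RPL26 and RPS27 each stand above their paralogue, while RPL39 and RPL7L1 are shown alone.
RPL22 (chr1:6199576-6199605, minus strand): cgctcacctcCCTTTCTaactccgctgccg
RPL22L1 (chr3:170870176-170870205, minus strand): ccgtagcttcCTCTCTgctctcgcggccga
RPL26 (chr17:8383174-8383203, minus strand): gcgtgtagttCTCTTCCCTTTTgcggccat
RPL26L1 (chr5:172958719-172958748, plus strand): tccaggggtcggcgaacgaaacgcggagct
RPS27 (chr1:153990752-153990781, plus strand): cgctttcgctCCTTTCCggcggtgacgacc
RPS27L (chr15:63157458-63157487, minus strand): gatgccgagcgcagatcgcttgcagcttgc
RPL39 (chrX:119791611-119791640, minus strand): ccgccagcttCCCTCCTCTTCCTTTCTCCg
RPL7L1 (chr6:42879606-42879635, plus strand): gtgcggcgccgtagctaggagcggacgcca

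Such a start was present in 42 of the 62 core genes, or 67.7%, against 4.04% of the 27305 promoters in the table. Among the 5 paralogues only RPL22L1 had it. The rule reads only from the annotated first base, so a run that begins a few bases away is not counted. RPL3, for example, begins with C and then TCT, short of the 4 more bases required. Core genes that are strongly lowered and the core gene with the largest rise are shown next, because genes with and without such a start by this rule occur among those that changed.
RPL13A (chr19:49487598-49487627, plus strand): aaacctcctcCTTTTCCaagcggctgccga
RPLP2 (chr11:809957-809986, plus strand): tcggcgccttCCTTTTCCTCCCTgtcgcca
RPL3 (chr22:39319604-39319633, minus strand): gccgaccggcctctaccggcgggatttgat
RPS26 (chr12:56041908-56041937, plus strand): acataacctcgattttcttccgccatccgg

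The comparison of NTX301 with DMSO asks whether the ribosomal protein genes changed with the drug, and whether core genes and paralogues did so alike. With NTX301, 39 of the 77 core genes fell and 4 rose, namely RPS26, RPL24, RPL38 and RPL36A, while 34 did not pass the test (edgeR quasi-likelihood test, adjusted p under 0.05). Most changes were small: the median log2 fold change of the core genes was -0.16, and only RPL3 changed by 2-fold or more. Of the 5 tested paralogues, 3 rose and 0 fell: RPL39L by 1.33, RPL26L1 by 0.98 and RPL7L1 by 0.62, all as log2 fold changes. All genes together set the background for these counts: 70.5% of the 19029 tested genes passed the test, 35.4% higher and 35.1% lower, and 21.9% passed with a change of at least 2-fold. The median size of change was 0.18 among core genes and 0.49 among all tested genes, whose median log2 fold change was -0.0005.

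**Figure D1:**
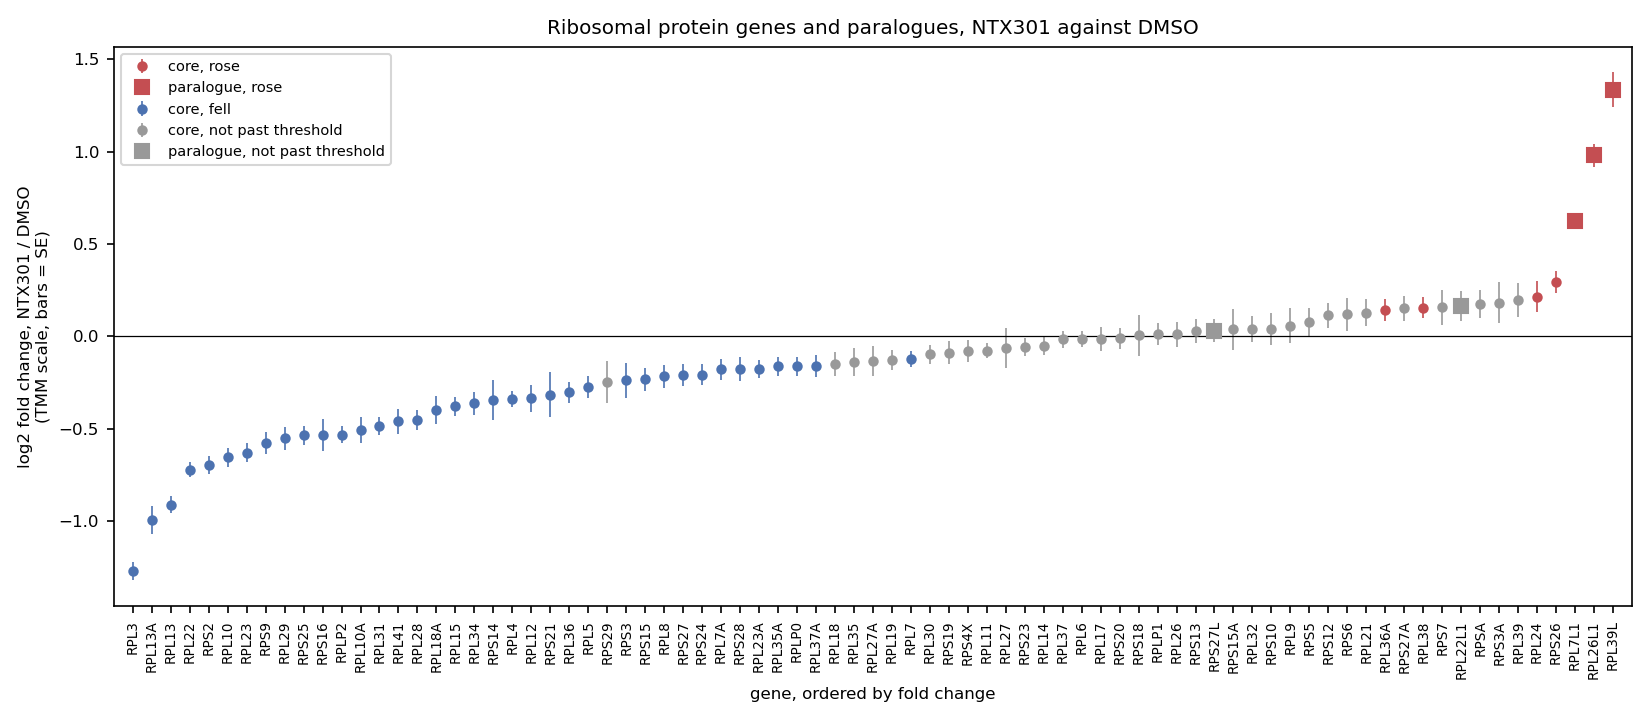
Log2 fold change of NTX301 over DMSO for core genes (circles, all but 3) and the 5 tested paralogues (squares), ordered along the horizontal axis, with SE as bars and color for the edgeR call. RPL39L, RPL26L1 and RPL7L1 stand at the upper end and RPL3 at -1.27 at the lower end.

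These directions rest on the scaling of the libraries, which was by the trimmed mean of M values (TMM) and sets the typical gene near no change. Without a scaling factor, the median was 0.21 over all tested genes and 0.05 over the core genes on the log2 scale. In that setting 27 core genes rose and 22 fell, while 71.1% of all genes passed, 46.2% higher and 24.9% lower. In limma on log2(TPM + 1), 29 core genes rose and 20 fell, while 68.2% of all genes passed, 45.5% higher and 22.7% lower. With libraries scaled to equal totals of the core genes, a setting chosen after seeing the data, 31 rose and 18 fell, while 63.8% of all genes passed, 44.2% higher and 19.6% lower. The sign of the fold change differed between TMM and no scaling factor in 22 core genes, and with both the core median lay below that of all genes. No core gene that fell with TMM rose past the threshold without a scaling factor, and 22 fell with both.

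**Figure D2:**
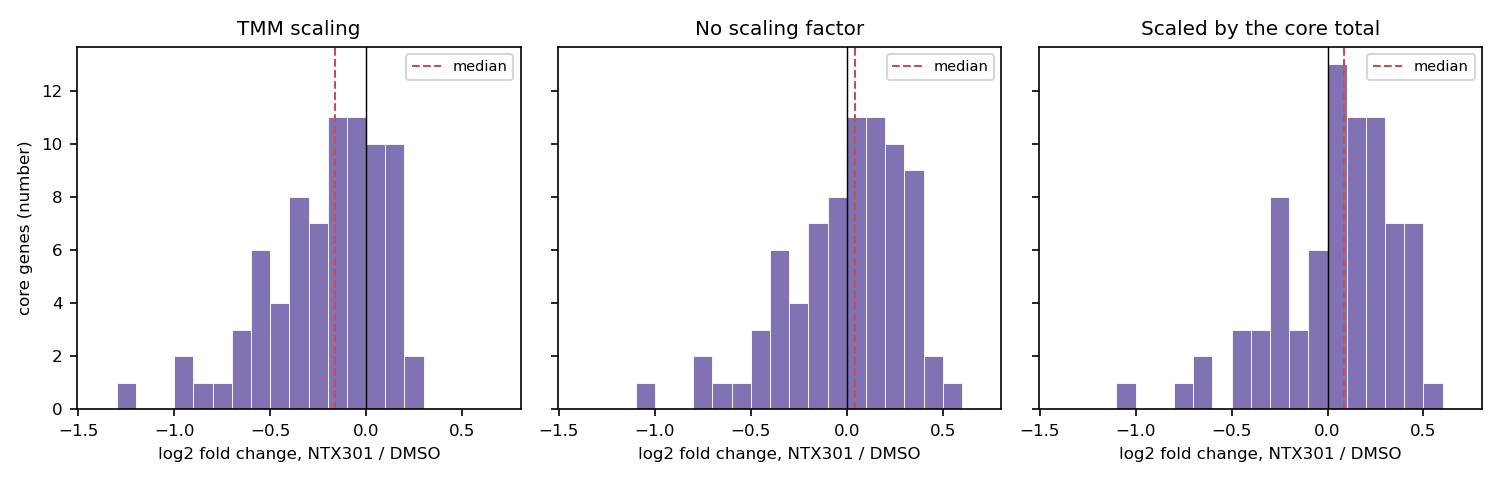
Number of core genes by log2 fold change (horizontal axis, bins of equal width) with TMM scaling, with no scaling factor and with libraries scaled to equal totals of the core genes. The dashed line is the median, at -0.16, 0.05 and 0.09, and the tail below zero is present in all 3 panels.

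In TPM, a length-corrected share of all transcripts scaled to a common total, the core genes held 12.99%, 13.03% and 11.55% with DMSO and 12.79%, 12.53% and 12.03% with NTX301. The groups overlapped, and the means of 12.5% ± 0.844 and 12.4% ± 0.39 (SD, n = 3 each) did not differ beyond their spread (two-sided exact permutation test, p = 0.9). That overlap rests on DMSO replicate 3: the other two DMSO libraries lay above all 3 NTX301 libraries, and without replicate 3 the difference of NTX301 from DMSO went from -0.07 to -0.56 percentage points. The mean level of a core gene ran from 243 to 4494 TPM with a median of 1428, and 54 of the 100 most abundant genes were core genes. Among the highest were RPL8, RPL19, RPS2 and RPL7, with 4494, 3593, 3418 and 3297 TPM over all libraries. Of these, RPS2 fell by 0.69, RPL8 by 0.22 and RPL7 by 0.12 on the log2 scale with TMM (edgeR). Without a scaling factor the fold change of RPL8 was -0.01 and that of RPL7 was 0.08. RPL19, at -0.13 with TMM, did not pass, but it did without DMSO replicate 3, at -0.19 (adjusted p = 0.003, edgeR).

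Large subunit genes fell in 26 of 46 cases and rose in 3, with a median log2 fold change of -0.16. Small subunit genes fell in 13 of 31 and rose in 1, with a median of -0.08. Of all tested genes 35.1% fell and 35.4% rose. The share of large subunit genes that fell, 56.5%, is thus above the background, and that of small subunit genes, 41.9%, is nearer to it. The shares that rose, 6.52% and 3.23%, are below it. Without DMSO replicate 3, 34 large subunit genes (73.9%) fell and 0 rose. Of the small subunit genes, 17 (54.8%) fell and 1 rose (all tested genes: 33.6% lower and 33.9% higher). Without a scaling factor the counts were 16 lower and 14 higher, and 6 lower and 13 higher, in the same order (all tested genes: 24.9% lower and 46.2% higher). The ratio of summed 60S to 40S transcripts, which needs no scaling between libraries, was 1.569, 1.574 and 1.659 with DMSO and 1.501, 1.511 and 1.522 with NTX301. All 3 NTX301 libraries lay below all DMSO libraries, with a log2 difference of -0.08 (two-sided exact permutation test, p = 0.1, the smallest that 3 against 3 libraries can give). DMSO replicate 3 had the highest ratio, and the SD was 0.0503 with DMSO and 0.0103 with NTX301.

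**Figure D3:**
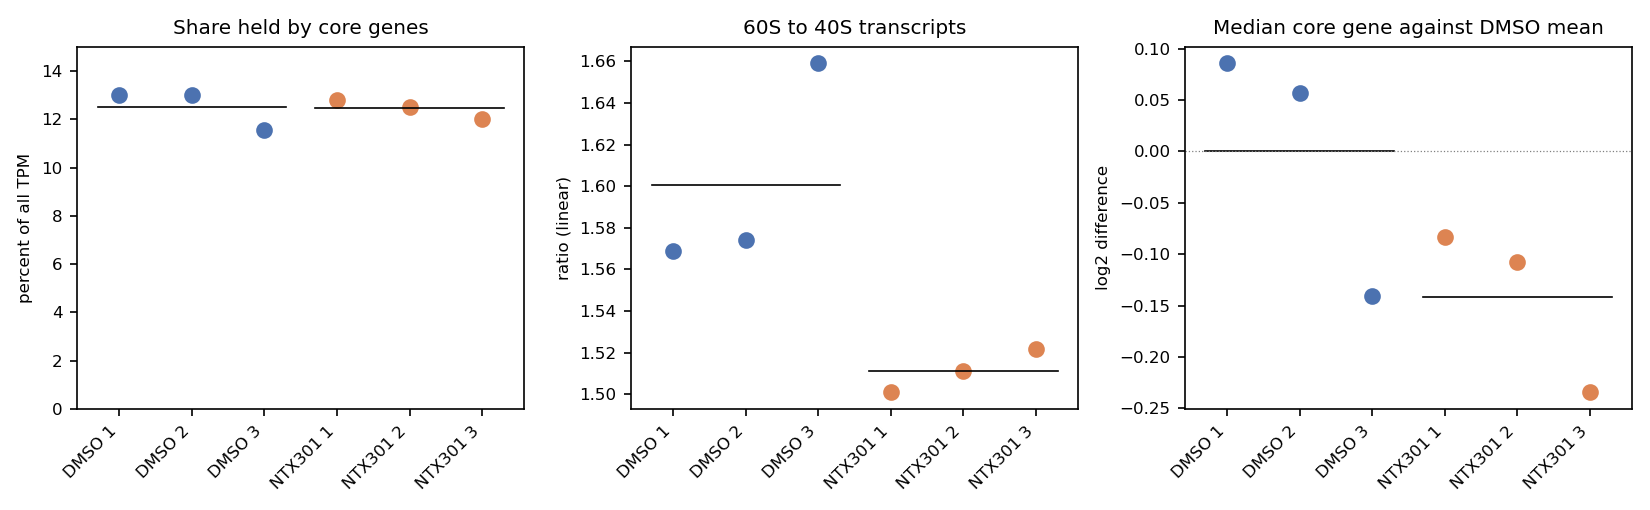
Per library (points, DMSO blue and NTX301 orange, lines for the group means): percent of all TPM held by core genes, linear ratio of summed 60S to 40S TPM, and the median over core genes of log2 CPM minus each gene's DMSO mean. DMSO replicate 3 has the lowest TPM share at 11.55% and the highest ratio at 1.66.

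The third replicate of each treatment stood apart in these genes. DMSO replicate 3 had the lowest CPM of the DMSO libraries in 76 of the 77 core genes, and NTX301 replicate 3 the lowest of the NTX301 libraries in 76. Compared with the mean of the other two libraries of its group, the median core gene was lower by a log2 difference of -0.21 in DMSO replicate 3 and -0.14 in NTX301 replicate 3, against -0.01 and 0.001 for all tested genes. The 1795 tested genes with mean transcripts under 800 bases differed by -0.07 and -0.05, and the 7459 with transcripts over 3000 bases by 0.02 and 0.03. The core genes have a median length of 634.7 bases. The part of transcript length in these shifts was not tested. Without DMSO replicate 3, 51 core genes fell and 1 rose, with a median of -0.24 (67.6% of all genes passed, 33.6% lower and 33.9% higher). Without NTX301 replicate 3, 32 fell and 8 rose, with a median of -0.11 (66.4% of all genes passed, 33.0% lower and 33.4% higher).

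The strongest falls were in proteins of both subunits. RPL3 (ENSG00000100316.16, chromosome 22, 39312882 to 39320389 in GRCh38, as all positions here), a large protein near the peptidyl transferase centre, had 849, 839.8 and 769 CPM with DMSO and 342, 349.7 and 326 CPM with NTX301. Every NTX301 library was below every DMSO library, and the gene fell by 1.27 ± 0.05 on the log2 scale (edgeR, adjusted p = 7.4e-10, n = 3 each). This was the largest change among the core genes, and RPL3 still fell by 1.07 without a scaling factor.

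RPL13A (chromosome 19, 49487554 to 49492308), known for silencing inflammatory mRNAs after its release from the ribosome, had 1287, 1275 and 1057 CPM with DMSO and 629, 628 and 561 CPM with NTX301. It fell by 0.99 ± 0.07 (adjusted p = 1.9e-07, edgeR). The groups did not overlap, and within the DMSO group replicate 3 was lowest. RPL13 on chromosome 16 (89560657 to 89566828), whose protein sits at the surface of the large subunit, had 1547, 1539 and 1420 CPM against 815, 808 and 775 CPM, and fell by 0.91 ± 0.05 (adjusted p = 6.3e-09, edgeR).

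RPL22 (chromosome 1, 6185020 to 6209389), an RNA-binding protein that cells can lose without losing ribosomes, had 269.3, 278 and 268.9 CPM with DMSO and 165, 172 and 157 CPM with NTX301. It fell by 0.72 ± 0.04 (adjusted p = 2.3e-08, edgeR), and by 0.62 with the counts of its pseudogenes added, which held 27.3% of the joint reads. RPL22 also overlaps RNF207 on the other strand. Its mean transcript length, which RSEM sets by the mix of isoforms, went from 1667, 1670 and 1725 bases with DMSO to 1576, 1581 and 1549 with NTX301. RPL22 and RPL15 were the only core genes whose length moved by more than 0.05 on the log2 scale.

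RPS2 (chromosome 16, 1962052 to 1964860), at the mRNA entry channel, had 2170, 2124 and 2032 CPM with DMSO and 1346, 1348 and 1215 CPM with NTX301, a fall of 0.69 ± 0.05 (adjusted p = 1.4e-07, edgeR). RPL10 on chromosome X (154389955 to 154409168), whose loading is a late step in 60S maturation, had 725, 706.5 and 654 CPM against 453, 456 and 415 CPM, a fall of 0.66 ± 0.05 (adjusted p = 2.9e-07, edgeR), and it overlaps DNASE1L1 on the other strand. RPL23 on chromosome 17 (38847865 to 38853843), which can bind MDM2, had 1057, 1024 and 976 CPM against 676, 687 and 612 CPM, a fall of 0.63 ± 0.05 (adjusted p = 4.2e-07, edgeR). For each of these genes from RPL3 to RPL23 the groups did not overlap, and each also fell without a scaling factor, RPL23 least, by 0.42.

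In 34 of the 77 core genes the CPM of the groups did not overlap, 31 of them lower and 3 higher with NTX301, against 73.7% of all tested genes, 36.5% lower and 37.2% higher. A set of 20 core genes fell in the main test and under all 15 other settings of scaling, test, filter, block, pseudogene counts and left-out libraries, against 21.5% of all tested genes, so their share is near the background. They include RPL3, RPL4, RPL10, RPL10A, RPL13, RPL13A, RPL22, RPL23, RPL28, RPL29, RPL31, RPL34, RPL41, RPLP2, RPS2, RPS9, RPS16 and RPS25, chosen here by their results. RPS26 was the only core gene that rose in all of these settings, against 30.2% of all tested genes.

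RPS26 (chromosome 12, 56041351 to 56044697), a protein at the mRNA exit channel that is mutated in some families with Diamond-Blackfan anaemia, had 100.1, 97.7 and 83.2 CPM with DMSO and 117, 117 and 111 CPM with NTX301. The groups did not overlap, and RPS26 rose by 0.29 ± 0.06 (edgeR, adjusted p = 0.0011). RPL24, at the bridge between the subunits, had 389, 372 and 299 CPM against 432, 417 and 382 CPM, with an overlap at NTX301 replicate 3, and rose by 0.22 ± 0.08 (adjusted p = 0.036, edgeR). RPL38, known for its part in translating Hox mRNAs in the mouse embryo, had 201, 201 and 177 CPM against 218, 225 and 203 CPM and rose by 0.16 ± 0.06 (adjusted p = 0.028, edgeR). RPL36A had 139.7, 134 and 126 CPM against 158, 149 and 135 CPM and rose by 0.14 ± 0.06 (adjusted p = 0.045, edgeR), with 23.5% of joint reads in pseudogenes. Without DMSO replicate 3 only RPS26 of these 4 passed the test, with a log2 fold change of 0.20.

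Some members are also known for roles of their own. Of the P stalk, which recruits and activates the translation factor GTPases, RPLP2 had 468, 457 and 442 CPM with DMSO and 327, 324 and 294 CPM with NTX301 and fell by 0.53 ± 0.05 (edgeR, adjusted p = 9.2e-07). RPLP0, the base of the stalk, fell by 0.16 ± 0.05 (adjusted p = 0.015, edgeR) but had a fold change of 0.04 without a scaling factor. RPLP1, the partner of RPLP2, was at 0.01 ± 0.06 and did not pass, but it passed at 0.22 without a scaling factor. RPL5 and RPL11, which with 5S rRNA bind and inhibit MDM2, had fold changes of -0.27 ± 0.06 and -0.08 ± 0.04. RPL5 passed (adjusted p = 0.0016, edgeR) and RPL11 did not (adjusted p = 0.12, edgeR), and without a scaling factor RPL5 was at -0.07 and RPL11 at 0.13. Without DMSO replicate 3 RPL11 passed at -0.11 (adjusted p = 0.024, edgeR). RPSA, also known as the laminin receptor precursor, had 601, 591 and 476 CPM against 645, 634 and 602 CPM, groups that did not overlap, and did not pass at 0.17 ± 0.07 (adjusted p = 0.056, edgeR). It passed at 0.38 without a scaling factor. RPLP2 overlaps PIDD1, RPL5 DIPK1A and RPL38 MGC16275 on the other strand. Of 18 core genes known as causes of Diamond-Blackfan anaemia, 7 fell and 1 rose with a median of -0.14, without a scaling factor 2 fell and 6 rose, and 13 fell and 1 rose without DMSO replicate 3. In the same order 35.1%, 24.9% and 33.6% of all tested genes fell, and 35.4%, 46.2% and 33.9% rose. The 38.9% of these core genes that fell with TMM is thus near the background, and the 5.56% that rose is below it. The share that fell was 72.2% without DMSO replicate 3, above the background, and 11.1% without a scaling factor, below it.

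Some ribosomal proteins lie outside the name rule. RACK1, a scaffold on the head of the 40S subunit, fell by 0.44 ± 0.05 from 1391, 1379 and 1248 CPM to 997, 1012 and 950.4 CPM (edgeR, adjusted p = 7.2e-06). RPL36AL, a paralogue of RPL36A, fell by 0.39 ± 0.05 (adjusted p = 2.3e-05, edgeR). FAU, which makes RPS30 fused to a ubiquitin-like protein, rose by 0.24 ± 0.07 (adjusted p = 0.0077, edgeR) and overlaps MRPL49 on the other strand.

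The 5 tested paralogues together held 0.0356%, 0.0353% and 0.0325% of TPM with DMSO and 0.0586%, 0.0585% and 0.0562% with NTX301, groups that did not overlap (two-sided exact permutation test, p = 0.1). In 3 of the 5 the CPM of the groups did not overlap, all higher with NTX301, against 37.2% of all tested genes. A count of 5 genes is too small to set against that share.

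RPL39L (ENSG00000163923.10, chromosome 3, 187120948 to 187180908), whose protein can take the place of RPL39 in the wall of the exit tunnel for the nascent chain, had 6.08, 5.50 and 5.45 CPM with DMSO and 15.2, 14.5 and 13.3 CPM with NTX301. It rose by 1.33 ± 0.09 on the log2 scale (edgeR, adjusted p = 1.2e-07, n = 3 each). RPL39 itself had 216, 200.2 and 162 CPM against 241, 223 and 199 CPM and did not pass at 0.20 ± 0.09 (adjusted p = 0.081, edgeR). With no scaling factor RPL39 passed at 0.40, and RPL39L was at 1.54. In TPM, RPL39L amounted to 1.36%, 1.33% and 1.62% of RPL39 with DMSO and to 3.06%, 3.15% and 3.25% with NTX301. The ratio was 2.20-fold higher with NTX301, a log2 difference of 1.14 ± 0.09 (SE).

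RPL26L1 (chromosome 5, 172958729 to 172969771), whose protein is nearly identical to RPL26, had 37.8, 36.9 and 32.7 CPM with DMSO and 72.2, 73.9 and 66.0 CPM with NTX301 and rose by 0.98 ± 0.06 (edgeR, adjusted p = 4.9e-08). It overlaps RPL26L1-AS1 on the other strand, and the sources used here do not say whether the counting used strand. RPL26 was at 0.01 ± 0.07 with TMM and did not pass. With no scaling factor RPL26 passed at 0.22, and RPL26L1 was at 1.19. RPL26L1 was at 5.14%, 5.40% and 5.13% of RPL26 in TPM with DMSO and at 9.95%, 10.3% and 10.6% with NTX301, 1.97-fold higher.

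RPL7L1 (chromosome 6, 42879618 to 42889925), the relative of a yeast factor for assembly of the large subunit, had 192, 192 and 186 CPM with DMSO and 293, 292 and 293 CPM with NTX301. It rose by 0.62 ± 0.04 (edgeR, adjusted p = 1.9e-08), with little spread inside either group. As a share of RPL7 in TPM it was at 2.29%, 2.26% and 2.33% with DMSO and 3.78%, 3.76% and 4.04% with NTX301, 1.68-fold higher. The start window of RPL7L1 printed above and that of RPL26L1 hold no TOP start.

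RPL22L1 (chromosome 3, 170864875 to 170870483) had 20.63, 20 and 17.92 CPM with DMSO and 22.8, 23.5 and 19.4 CPM with NTX301. The groups overlapped, and with TMM the fold change of 0.16 ± 0.08 did not pass (edgeR, adjusted p = 0.095), while without a scaling factor it passed at 0.37. In limma on log2(TPM + 1), which takes length into account, it did not pass at 0.19 (adjusted p = 0.072). Next to its falling parent it was a larger share: 22.1%, 21.0% and 18.2% of RPL22 in TPM with DMSO and 33.0%, 31.3% and 28.4% with NTX301, 1.51-fold higher. The mean transcript length of RPL22L1 went from 625, 620 and 680 bases to 701, 730.4 and 715 bases, so its isoform mix differed too. RPL22 and RPL22L1 are the pair printed above in which both starts have the pyrimidine run.

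RPS27L (chromosome 15, 63125872 to 63158021), which overlaps LACTB on the other strand, had 42.2, 39.4 and 35.9 CPM with DMSO and 41.6, 41.0 and 37.6 CPM with NTX301, and did not pass at 0.03 ± 0.06 (edgeR, adjusted p = 0.68). Without a scaling factor it passed at 0.24. Its share of RPS27 in TPM was 5.27%, 5.14% and 4.70% with DMSO and 6.15%, 5.93% and 6.39% with NTX301, 1.22-fold higher.

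The muscle paralogue RPL3L had 16, 10 and 9 counts with DMSO and 8, 9 and 10 with NTX301, so it was close to the detection limit in every library. Relative to the falling RPL3 its TPM was 0.0476%, 0.0292% and 0.0331% with DMSO and 0.0552%, 0.06% and 0.0707% with NTX301. The germ cell paralogue RPL10L had 1 count in DMSO replicate 3 and 1 in NTX301 replicate 3 and none elsewhere. A library without counts allows a level of up to 0.118 to 0.128 CPM (3 counts, counting error only), so a difference in RPL10L was not detectable at this depth.

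In 6 of the 7 pairs with a ratio, the paralogue's share of its parent was higher in every NTX301 library than in every DMSO library. The exception was RPL36AL, at 79.3%, 78.9% and 79.2% of RPL36A with DMSO and 52.8%, 57.4% and 58.0% with NTX301. The 6 are not alike: RPL22L1 and RPS27L did not pass themselves with TMM. RPL3L rests on 8 to 16 counts per library, and its own CPM was lower in every NTX301 library. No such share was computed over other gene pairs. For single genes, the CPM of the groups did not overlap in 73.7% of all tested genes, 37.2% higher and 36.5% lower with NTX301. Every pair had an exact two-sided permutation p of 0.1, also 0.1 after adjustment over the 7 pairs, which is the floor for 3 against 3 libraries. These ratios are within a library and do not depend on scaling, but they do depend on how RSEM divided reads between similar copies.

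**Figure D4:**
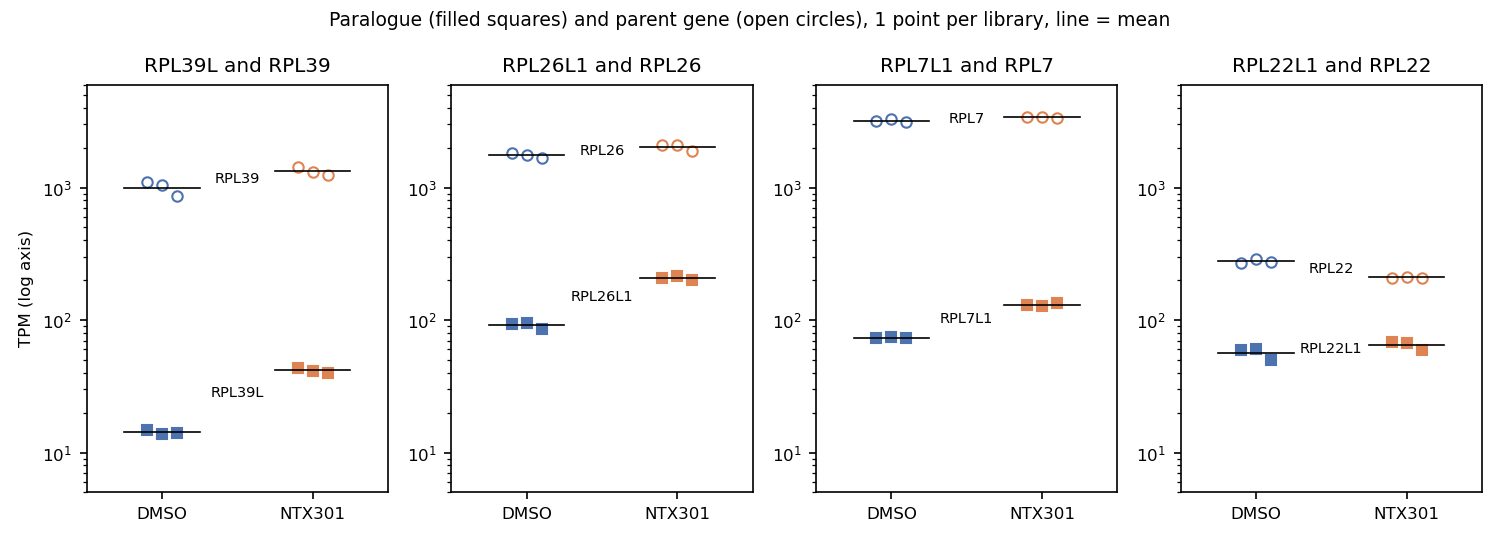
TPM on a log axis in each library for 4 paralogues (filled squares) and their parents (open circles), with lines for the group means. RPL39L, RPL26L1 and RPL7L1 move up with NTX301, to 40.1 to 43.7, 199.6 to 213.9 and 128 to 135 TPM, while RPL22 moves down to 207 to 213 TPM, and TPM carries no TMM factor.

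Features outside the name rule were compared among the core genes. In 28 core genes introns host small nucleolar RNAs, which guide rRNA modification. Of these hosts 16 fell and 0 rose, with a median of -0.21 (edgeR, 12 did not pass), while of the other 49 core genes 23 fell and 4 rose, with a median of -0.14. Without a scaling factor 11 hosts fell and 10 rose, and of the other 49 core genes 11 fell and 17 rose. Over all tested genes 35.1% fell and 35.4% rose with TMM, and 24.9% fell and 46.2% rose without a scaling factor. The TOP start was present in 22 of 30 core genes that fell and have a promoter entry. It was also present in 17 of 28 that did not pass and in 3 of 4 that rose. Over all core genes with a promoter entry, the median fold change was -0.16 with the start and -0.10 without it. Among those that fell the order was the reverse, -0.35 with the start and -0.44 without it. The split by TOP start depends on the annotated first base. Across core genes, the log2 fold change and the GC content of the longest coding transcript had a Spearman correlation of -0.37 (77 genes, description only, since all share the same 6 libraries), against -0.10 over the 14108 tested genes with such a transcript in GENCODE 29. The 20 genes that fell in every setting had a median GC content of 53.0%, the other 57 core genes 48.1%.

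Promoters of core genes, taken as 250 bases before to 50 after the start, had a median of 23 CpG dinucleotides, those of the 5 paralogues 25 and all promoters 14. CpG is the target of the methylation that hypomethylating agents lower, and no methylation was measured in the files used here. The motif CCGGAAG, searched on both strands, was in 33.9% of core promoters and 10.7% of all, AAGATGGC in 9.68% and 3.03%, and CACGTG in 4.84% and 7.43%. The first is a core of ETS family sites such as those of GABPA, the second of YY1 and the third the E-box bound by MYC and MAX, and a match describes letters only.

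Among other mRNAs known for a TOP start, 15 of 17 fell and 0 rose, with a median log2 fold change of -0.45 (12 fell and 2 rose without a scaling factor). EIF4B, which helps the helicase at the mRNA cap, went from 686, 689.6 and 691 CPM with DMSO to 240.1, 248 and 235 CPM with NTX301 and fell by 1.51 ± 0.04 (edgeR, adjusted p = 4.9e-11). HNRNPA1, a splicing regulator, fell by 1.19 ± 0.04. The 2 that did not pass were EEF1B2 and VIM, at -0.003 and -0.01, named here after their values were seen.

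Chaperones of ribosomal proteins and factors of late subunit assembly went the other way, with 15 of 19 higher and 2 lower and a median of 0.33 (17 higher and 1 lower without a scaling factor). RIOK1, a kinase of 40S maturation, went from 13.9, 14.4 and 15.1 CPM to 31.1, 29.7 and 29.5 CPM and rose by 1.06 ± 0.06 (edgeR, adjusted p = 1.3e-08). SBDS, which with EFL1 releases EIF6 from the new 60S subunit, rose by 0.95 ± 0.05, whereas EFL1 fell by 0.43 ± 0.05 and EIF6 by 0.27 ± 0.05. EIF6 was at -0.06 without a scaling factor.

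Of 19 regulators of ribosomal protein synthesis, 6 rose and 13 fell with a median of -0.24, and 7 rose and 8 fell without a scaling factor. MLST8, an mTOR complex subunit, fell by 1.34 ± 0.05 and TSC2, an inhibitor of mTORC1, by 1.20 ± 0.04. LARP1, the TOP mRNA-binding repressor, fell by 0.37 ± 0.04, and this gene was picked for its role after its value was seen. MAX, the partner of MYC, rose by 0.66 ± 0.04 and EIF4EBP1, a repressor of cap-dependent translation, by 0.55 ± 0.05. Of 8 ribosomal S6 kinases, whose names resemble the members', 5 fell and 0 rose (3 fell and 3 rose without a scaling factor). Of 6 genes for ribosome hibernation and collision sensing, 3 fell and 0 rose (3 fell and 2 rose without a scaling factor), and EDF1, a sensor of collided ribosomes, fell by 1.69 ± 0.07 on the log2 scale, from 101.9, 98.0 and 92.4 CPM to 31.6, 32.6 and 26.5 CPM (edgeR, adjusted p = 1.3e-09). The background for all these counts is the 35.4% of tested genes that rose and the 35.1% that fell. Without a scaling factor it is 46.2% and 24.9%, and no list was tested against either.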

How the data were processed

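One gene table per library was deposited, with the columns that RSEM writes, per the file headers. The deposited expected counts are reads per gene as RSEM estimated them, not normalized. The TPM values were deposited by the authors' run of RSEM and are scaled over all genes of a table, and the FPKM column the authors deposited was left aside. The sources used here do not give the aligner, genome build, annotation release or strand setting. Per the labels' protocols, RNA was isolated with TRI Reagent, treated with DNase and made into libraries with a NEBNext Ultra II kit. Groups and replicate numbers come from the sample titles.

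The 62703 entries became 62656 genes after 47 pseudoautosomal Y copies were added to X. Symbols matched for 62639 genes and GENCODE 29 positions (GRCh38) for 58220. Rounded expected counts were fitted in edgeR 4.0.16 under R 4.3.3 (filterByExpr, 19029 genes, TMM, glmQLFit and glmQLFTest, treatment as the only term, Benjamini-Hochberg adjustment over all tested genes, threshold 0.05). TMM factors were 0.921 to 0.939 for DMSO and 1.07 to 1.08 for NTX301. CPM uses these factors. Errors of fold changes are standard errors. The common biological coefficient of variation was 0.0478. The fit was first tested on simulated data with known changes. Those changes were set in a small part of the genes and balanced between directions, so the simulation does not bear on the choice of scaling. Chi-square per degree of freedom between libraries of a group was 2.37 to 6.57, so none was treated as a duplicate. Totals per library (22131175 to 25743732 counts) put the floor of 3 counts at 0.117 to 0.145 CPM.

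Shares and ratios of TPM were compared by exact permutation tests over libraries. TOP starts and motifs were read from RefSeq promoters, and GC content from GENCODE 29 transcripts. Pseudogenes named after members, 1600 entries, took 2.48% to 2.64% of the joint counts. Of the core genes 29 overlap a tested gene on the other strand and 10 on the same strand. The replicate numbers were not taken to pair libraries. Alternatives were other scalings and tests (DESeq2 1.42.0, limma 3.58.1, log2(TPM + 1) and log2(TPM + 0.1)), no filter, a replicate block, added pseudogene counts and each library left out.

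Named genes are every paralogue and parent, RPL5, RPL11, RPSA, the stalk, the proteins outside the name rule, the 8 core genes with the largest rise and fall past the threshold (only 4 rose), the 5 most abundant, and up to 2 per direction from each related list. Some of these are not reported here. Members and lists were chosen with earlier results of these data known.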

Additional observations from a re-analysis of the deposited data

How the results depend on the processing

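The counts of core genes that rose and fell (4 and 39) were 27 and 22 without a scaling factor, and 29 and 20 in limma on both log2(TPM + 1) and log2(TPM + 0.1). They were 31 and 18 with libraries scaled by the total of the core genes, a setting chosen after seeing the data. Without a filter on low counts 2 rose and 44 fell, with a median of -0.19. The core median of -0.16 turned to 0.0451, 0.0587, 0.0587 and 0.0855 under these 4 scalings, in the order none, TPM + 1, TPM + 0.1 and core total. Each of them changes the reference level by construction. In the same order RPL7 reversed to 0.0841, 0.0799, 0.0799 and 0.1218, RPL11 to 0.1288, 0.1256, 0.1257 and 0.1661, and RPLP0 to 0.0449, 0.0616, 0.0616 and 0.085. RPL8 reversed to 0.0377, 0.0377 and 0.0322 under the last 3 and RPS27 to 0.0327 under the last. Leaving out 1 library gave 1 to 9 core genes that rose and 30 to 51 that fell. The difference in TPM share, -0.07 percentage points, ranged from -0.5573 (DMSO replicate 3 left out) to 0.1838 (DMSO replicate 2 left out), and was also above 0 when DMSO replicate 1 (0.1631) or NTX301 replicate 3 (0.1426) was left out. The cause was not tested. Same-numbered libraries had correlations of their deviations of 0.124, 0.018 and 0.095, and differently numbered ones ran from -0.122 to 0.018. The labels do not say that the numbers pair libraries, so pairing was not assumed, and these values do not settle it. With the replicate number as a block, 11 core genes rose and 45 fell with a median of -0.16, RPL22L1, RPL39, RPSA and RPL19 also passed, and each pair ratio kept its value with an exact p of 0.25, the floor for 3 pairs. DESeq2 gave 4 and 38, limma-voom 4 and 38, and added pseudogene counts 4 and 38. RPL39L, RPL26L1 and RPL7L1 rose in all settings. Among the members, depth limits RPL3L and RPL10L. The 3 against 3 design limits every exact test to p = 0.1.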
